A study of Saccharomyces cerevisiae with 16 samples.

Results

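Transcript levels and intron retention were compared between a wild-type culture of budding yeast grown in 20% glucose and a wild-type culture grown in 0.4 M NaCl. Both additions raise the osmotic pressure of the medium, one with a sugar that the cells also ferment and the other with a salt whose sodium is toxic at high levels. Both cultures carry the label WT. Per the labels they were grown in YPD, a rich medium, for 24 h with re-inoculation every 8 h, which was meant to hold them in exponential growth. The study elsewhere describes the glucose culture used for total RNA as harvested in late exponential phase, and the phase of the NaCl culture is not given there. Each culture gave 1 RNA sample, and each RNA sample gave a polyA library and a ribodepleted total RNA library, so the comparison rests on 4 of the 16 libraries of the series. All coding sequences (CDS) in the count table were used, 6697 in total, together with 297 introns. The other wild-type cultures, in LiCl, in 0.32 µg/ml myriocin and in 0.85 µM fenpropimorph, served only to show where the levels in glucose and NaCl lie. Those 3 cultures were picked from concentration gradients by their growth inhibition, whereas glucose and NaCl were used at a single concentration, so that growth inhibition was not matched between them. The nature of the stressor, the growth rate and the growth phase therefore cannot be told apart. A culture without a stressor is not among the groups compared here.

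Yeast in a medium of high osmolarity accumulates glycerol, made from a glycolytic intermediate by Gpd1 and Gpp enzymes under control of the Hog1 kinase. Stress of many kinds also brings the transcription factors Msn2 and Msn4 into the nucleus, where they bind the stress response element and switch on chaperone, antioxidant and carbohydrate storage genes. Misfolded proteins act through another factor, Hsf1, and calcium signals act through calcineurin and Crz1. The genes of ribosomal proteins (RP genes) usually follow growth rate and nutrient signals in the opposite direction. They also hold a large share of the introns of the yeast genome, which makes them the main substrate of the spliceosome.

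The 4 libraries held between 33700445 and 49473030 reads on CDS. There was 1 library per culture and library type, and the 2 library types are 2 preparations of the same RNA, not replicates. No p-value is therefore given, and the intervals are 95% counting intervals, which do not cover variation between cultures or PCR duplicates. Levels are counts scaled to a common library size by TMM, which assumes that most genes do not differ (CPM), and changes are log2 ratios of glucose over NaCl. A gene is called higher or lower in glucose where it differed at least 2-fold in the same direction in both library types. The cultures carried the same strain markers. *LEU2* and *MET17* had 0 reads in all 4 libraries and *URA3* had at most 1, while *HIS3* had 1120 to 5092 and *LYS2* 6643 to 13584. The MATa genes *STE2* and *MFA1* had at least 9191 reads per library, and the MATalpha pheromone gene *MF(ALPHA)1* had at most 14.

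Of 6602 genes tested in both library types, 578 were called (8.75%), 272 of them higher in glucose than in NaCl (4.12%) and 306 lower (4.63%). Of these, 38 of the higher and 62 of the lower genes overlap another CDS. The share of overlapping CDS among all tested genes was not counted, so these counts have no background to be read against. In the polyA libraries alone 477 of 6640 genes were at least 2-fold higher (7.18%) and 523 lower (7.88%). In the ribodepleted libraries 486 of 6616 were higher (7.35%) and 466 lower (7.04%). The sign of the change was the same in both library types for 75.8% of genes, with Pearson's r = 0.76 across genes, which are not independent replicates. In 5 genes the change was at least 2-fold in opposite directions. Stress and chaperone genes were frequent among the 15 largest increases, and phosphate and RP genes among the 15 largest decreases.

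**Figure D1:**
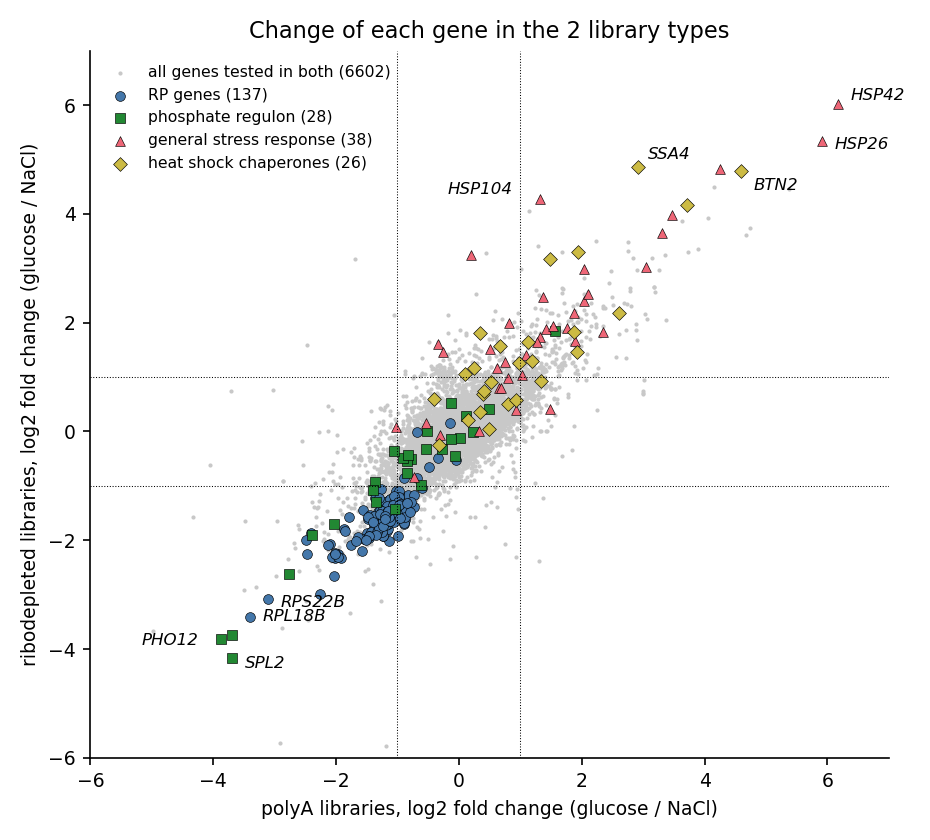
Log2 fold change of each gene, glucose over NaCl, in the polyA libraries (x axis) and in the ribodepleted libraries (y axis), with dotted lines at 2-fold. Larger symbols mark 4 gene lists among the 6602 genes tested in both, where *HSP42* and *HSP26* lie at the upper right, and *PHO12*, *SPL2*, *RPL18B* and *RPS22B* at the lower left.

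The largest differences were in small heat shock proteins and in proteins that collect misfolded protein into deposits. *HSP42* (YDR171W, chromosome IV, 806621 to 807748, plus strand), a small heat shock protein that gathers misfolded proteins in the cytosol, had 374 CPM in glucose against 5.19 CPM in NaCl in the polyA libraries. These levels came from 12966 and 205 reads, a log2 fold change of 6.17 (5.97 to 6.37). In the ribodepleted libraries *HSP42* had 348 CPM in glucose and 5.35 CPM in NaCl (6.02, 5.83 to 6.21). *HSP26*, another small heat shock protein, had 408 CPM in glucose against 6.74 CPM in NaCl in polyA libraries and 199 against 4.91 CPM in ribodepleted ones (5.92 and 5.34). The level of both genes in NaCl was the lowest of the 5 wild-type cultures. For *HSP42* the LiCl, myriocin and fenpropimorph cultures ran from 243 to 941 CPM in polyA libraries, so glucose lay within their range and NaCl did not.

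Of 38 genes on a list of the general stress response, 21 were higher in glucose and 0 lower, against 4.12% higher among all genes. The list median was 1.29 (0.75 to 1.76) in polyA and 1.71 (1.28 to 2.18) in ribodepleted libraries, where the medians over all genes were 0.00 and 0.01. The members that rose included *SOL4*, which encodes an enzyme of the pentose phosphate pathway, with 35.3 CPM in glucose against 1.85 CPM in NaCl (polyA) and 31.2 against 1.08 CPM (ribodepleted). *PNC1*, the nicotinamidase, had 359.9 CPM in glucose against 43.7 CPM in NaCl in polyA and 322 against 39.6 CPM in ribodepleted libraries, a log2 difference of 3.04 and 3.02. The cell wall protein gene *SPI1* rose by 3.30 and 3.65 log2 units and the membrane protein gene *HSP30* by 3.46 and 3.98. *CTT1*, the cytosolic catalase, rose less, with 41.7 CPM in glucose against 16.2 CPM in NaCl in polyA and 41.6 against 7.49 CPM in ribodepleted libraries. The LiCl culture held 2014 CPM of *CTT1* in its polyA library, far above both. *HSP12*, a membrane chaperone often used as a stress reporter, was not called, with 333 against 120 CPM in polyA libraries (1.48) and 171 against 128 CPM in ribodepleted ones (0.42).

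The stress response element is the 5-base motif AGGGG. It was found on either strand in 44.1% of the promoters of genes higher in glucose (120 of 272), against 16.7% of those of genes lower in glucose (51 of 306) and 21.5% of all 6595 promoters searched. The window ran from 250 bases before to 50 bases after the start codon. In a window of 600 bases before the start codon, chosen after the values were seen, the shares were 66.2%, 36.9% and 39.3%. Within the stress list the motif did not separate the genes, since 13 of the 21 called higher and 10 of the 17 others held it in the shorter window. Windows of 30 bases from the R64 genome around a site of the leading genes are shown on the strand of the gene, with the motif or its reverse complement in capitals, to show the element in the genes with the largest change.
HSP42, chrIV:806397-806426: tgagaactgctcAGGGGcgaatacaggggc
HSP26, chrII:381692-381721: ggttattccctcCCCCTtatgcgtccaaaa
SOL4, chrVII:985834-985863: taaaaaaatcccCCCCTaagcagcgaaaat
PNC1, chrVII:428158-428187: tcttcaaggggcAGGGGtttccgtttggcc
The *HSP26* site lies 326 bases before the start codon, outside the shorter window. A match is a description of the letters and not a mapped binding site.

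A good part of the chaperones and cochaperones of the heat shock response was higher in glucose. Of 26 listed genes, 10 were called higher and 0 lower, against 4.12% and 4.63% among all genes, and 24 of 26 lay above 0 in polyA libraries and 25 of 26 in ribodepleted ones. *HSP82*, the inducible form of the Hsp90 chaperone, had 858 CPM in glucose against 65.7 CPM in NaCl (polyA) and 1211 against 67.5 CPM (ribodepleted). Its near-identical constitutive partner *HSC82* had 1906 CPM in glucose against 1601 CPM in NaCl in polyA libraries (0.25) and 2630 against 1177 CPM in ribodepleted ones (1.16), and was not called. *SSA4*, the stress-inducible Hsp70, had 229 CPM in glucose against 30.5 CPM in NaCl and 290.0 against 10.01 CPM. The constitutive Hsp70 gene *SSA2* went to either side of 0, with a log2 change of -0.40 in polyA and 0.59 in ribodepleted libraries.

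*BTN2* and *CUR1* encode related factors that sort misfolded proteins to deposits in the cell. *BTN2* had 312 CPM in glucose against 12.9 CPM in NaCl in polyA libraries and 111 against 4.02 CPM in ribodepleted ones (4.60 and 4.78). In this gene the glucose culture stood above all other wild-type cultures, which ran from 16.6 to 59.0 CPM in polyA and from 10.8 to 16.1 CPM in ribodepleted libraries. *CUR1* showed the same order, with 56.2 CPM in glucose, 9.25 CPM in NaCl and 19.1 to 25.1 CPM in the other cultures (polyA). *SIS1*, an Hsp40 cochaperone that works with both, had 565 CPM in glucose and 155 CPM in NaCl, with 189 to 269 CPM in the others. Thus *BTN2* and *CUR1* lay above the other cultures in glucose and below them in NaCl. *HSP42* and *HSP26* were below the other cultures in NaCl, with glucose inside their range.

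A heat shock element, searched as 3 alternating TTC or GAA units set 2 bases apart, was chosen after the values were seen. In the 600 bases before the start codon it occurred in 4 of the 10 chaperone genes called higher, in 7 of the 16 others and in 1.64% of all promoters, so its share was not higher among the called members of the list. Sites of 3 leading genes are shown with the element in capitals, 243 to 344 bases before the start codon.
HSP42, chrIV:806370-806399: cttaaaagTTCTGGAAGGTTCgcgaattga
BTN2, chrVII:772102-772131: acttttttTTCTAGAAAGTTCcggaaaatt
SIS1, chrXIV:619878-619907: acgttccaGAAACTTCTGGAAaaagaatgg

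Some targets of calcineurin signalling were also higher in glucose. Of 18 listed genes, 4 were called higher and 0 lower, against 4.12% and 4.63% among all genes, with a median of 0.49 (0.01 to 0.66) in polyA and 0.42 (0.21 to 1.51) in ribodepleted libraries. *CMK2*, a calmodulin-dependent kinase and target of Crz1, had 551 CPM in glucose against 33.1 CPM in NaCl (polyA) and 229 against 14.9 CPM (ribodepleted), a log2 change of 4.06 and 3.93. *RCN2*, which encodes a regulator of calcineurin, had 306 CPM in glucose against 32.0 CPM in NaCl in polyA libraries and 97.9 against 12.6 CPM in ribodepleted ones. *RCN1*, another regulator, rose by 1.39 and 1.43, and *GYP7*, a GTPase-activating protein, by 1.31 and 2.51. For *CMK2* and *RCN2*, NaCl was again the lowest of the 5 cultures. The other 3 ranged from 350.2 to 773 CPM for *CMK2* and from 147 to 258 CPM for *RCN2* in polyA libraries. *CRZ1* itself and the vacuolar calcium pump gene *PMC1* were at least 2-fold higher in the ribodepleted libraries only, by 1.72 and 1.51, against 0.60 and 0.01 in polyA libraries. The motif GNGGCNCA, bound by Crz1, was searched on either strand from 250 bases before to 50 after the start codon. It was found in 1 of the 4 called genes, in 3.68% of all genes higher in glucose and in 3.79% of all promoters. In the 600 bases before the start codon it was found in 1 of the 4, in 13.6% and in 9.69%.

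The remaining genes of the 15 with the largest increase were of several kinds. *ROQ1*, whose product redirects the ubiquitin ligase Ubr1 under stress, had 75.9 CPM in glucose against 1.82 CPM in NaCl (polyA) and 17.0 against 0.76 CPM (ribodepleted). The others were *YPR145C-A*, *YBR056C-B*, *FMP48*, *MNC1*, *RCR1* and *DIA1*, with log2 changes between 3.64 and 4.74 in polyA and between 3.29 and 4.49 in ribodepleted libraries. *YBR056C-B* and *MNC1* overlap on opposite strands, had similar counts in all 4 libraries and cannot be told apart here. Among 100 CDS pairs that lie one inside the other on opposite strands, the 2 partners changed within 0.25 log2 units of each other in 80% of pairs (polyA) and 77% (ribodepleted), and the strand setting of the read counting is not given in the sources used here.

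In glycolysis single genes differed. Of 26 glycolytic and fermentative genes, 3 were higher in glucose and 0 lower, against 4.12% and 4.63% among all genes. *TDH1*, the minor glyceraldehyde-3-phosphate dehydrogenase, had 1251 CPM in glucose against 141 CPM in NaCl in polyA libraries and 955 against 105 CPM in ribodepleted ones. *GLK1*, glucokinase, had 264 CPM in glucose against 64.1 CPM in NaCl and 354 against 44.5 CPM. Both also had their lowest level of the 5 cultures in NaCl. *PDC6*, a minor pyruvate decarboxylase, rested on few reads, 137 in glucose and 51 in NaCl (polyA). The list median was -0.14 (-0.67 to 0.25) in polyA and 0.11 (-0.15 to 0.44) in ribodepleted libraries, and both signs turned when CPM was scaled on total counts (0.22 and -0.21).

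No hexose transporter gene was called higher in the culture with more sugar. Of 17 listed genes, 0 were higher and 3 lower in glucose, against 4.63% lower among all genes. Taking the ribodepleted libraries by themselves, 2 of the 17 were at least 2-fold higher and 3 lower, against 7.35% and 7.04% of all genes. *HXT1*, the low-affinity transporter that yeast induces at high glucose, had 602 CPM in glucose against 1685 CPM in NaCl in polyA libraries and 366 against 735 CPM in ribodepleted ones (-1.49 and -1.01). *HXT2*, a high-affinity transporter that is repressed by much glucose, had 15.8 CPM in glucose against 179 CPM in NaCl and 7.82 against 58.8 CPM (-3.50 and -2.91). For *HXT2* the glucose culture was the lowest of the 5, which otherwise ran from 38.6 to 579 CPM in polyA libraries. *HXT6* and *HXT7*, which share most of their sequence, had 28.6 and 26.8 CPM in glucose and 69.9 and 50.6 CPM in NaCl, against 259 to 1061 CPM in the others (polyA). *HXT14* was also called lower but rested on 3 reads in glucose and 11 in NaCl in the polyA libraries. The list median was -0.87 (-1.29 to 0.02) in polyA and 0.06 (-0.39 to 0.26) in ribodepleted libraries, so it had no common sign.

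Few genes of respiration and of the use of other carbon sources passed 2-fold. The 48 genes of the TCA cycle and the respiratory chain had a median of 0.61 (0.35 to 0.75) in polyA and 0.48 (0.32 to 0.64) in ribodepleted libraries, with 4 genes higher and 1 lower against 4.12% and 4.63% among all genes. Of the 48, 39 lay above 0 in polyA and 40 in ribodepleted libraries. *KGD2* and *LSC2*, subunits of TCA cycle enzymes, and *SDH4* and *QCR10*, subunits of respiratory complexes, rose by 1.05 to 1.32 log2 units. *NDE1*, the NADH dehydrogenase that faces the cytosol, fell by 1.54 and 1.55. Of 18 genes of gluconeogenesis and the glyoxylate cycle, *MDH2* and *CIT2* were higher, and of 16 genes for other sugars *GAL7* was higher and the maltose genes *MAL32* and *MAL33* were lower. *SUC2*, the invertase gene that glucose represses, had 102 CPM in glucose against 105 CPM in NaCl (polyA) and 45.5 against 59.1 CPM (ribodepleted).

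Genes of the osmotic response itself differed less between the cultures than general stress genes did. Of 15 genes of glycerol synthesis and transport, 0 were higher and 1 lower, against 4.12% and 4.63% among all genes. That gene was *GPP1*, a glycerol-3-phosphatase, with 1049 CPM in glucose against 3129 CPM in NaCl in polyA libraries and 382 against 1533 CPM in ribodepleted ones (-1.58 and -2.004). Its paralog *GPP2*, the form induced by osmotic stress, leaned the other way without being called, with 669 against 379 CPM (0.82) and 351 against 175 CPM (1.001). *GPD1*, the first enzyme of glycerol synthesis, had 284 CPM in glucose against 498 CPM in NaCl (-0.81) in polyA libraries and 232 against 233 CPM (-0.01) in ribodepleted ones. The glycerol importer gene *STL1* was at 8.63 CPM in glucose and 7.42 CPM in NaCl, against 124 CPM in LiCl (polyA). The motif ACGTCA, a binding site of the Hog1 target Sko1, was searched from 250 bases before to 50 after the start codon. It was found in 8.09% of promoters of genes higher in glucose, 10.5% of those lower in glucose and 8.40% of all. In the 600 bases before the start codon the shares were 18.4%, 18.3% and 16.6%. Of 24 genes of the HOG pathway only *PTP3*, a phosphatase that acts on Hog1, was called, against 8.75% of all genes. *PTP3* was lower in glucose (-1.40 and -1.03).

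The genes of the sodium pumps did not differ beyond 2-fold between the sugar culture and the salt culture. *ENA1*, the sodium exporting pump, had 261 CPM in glucose against 463 CPM in NaCl in polyA libraries (-0.83) and 287 against 319 CPM in ribodepleted ones (-0.15). The copies *ENA2* and *ENA5* are nearly identical to it in sequence, gave similar values and cannot be told apart with certainty. Of 24 genes on the list of sodium and potassium transport, 0 were higher and 2 lower, a share near the 4.63% lower among all genes. *PMA1*, the plasma membrane proton pump that drives ion transport, had 1351 CPM in glucose against 7089 CPM in NaCl (polyA, -2.39) and 1842 against 4548 CPM (ribodepleted, -1.30). *HSP30*, named above, encodes an inhibitor of that pump and changed in the opposite direction. *PHO89*, which carries phosphate together with sodium, had 3.52 CPM in glucose against 22.4 CPM in NaCl and 1.86 against 8.21 CPM.

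Part of the phosphate regulon was lower in glucose. These genes are switched on by the factor Pho4 when phosphate is scarce and encode secreted acid phosphatases, high-affinity transporters and the machinery for storing polyphosphate. Of 28 listed genes, 9 were lower and 1 higher, against 4.63% and 4.12% among all genes, and the median was -0.83 (-1.35 to -0.27) in polyA and -0.50 (-1.07 to -0.32) in ribodepleted libraries. *PHO12*, an acid phosphatase, had 23.8 CPM in glucose against 349 CPM in NaCl (polyA, -3.88) and 11.0 against 156 CPM (ribodepleted, -3.82). *PHO11* is so similar that 75.2% of its 100-base windows occur in a second copy, and its values of 20.8 against 269 CPM and 8.49 against 114 CPM are not independent of those of *PHO12*. *PHO84*, the high-affinity phosphate transporter, had 213 CPM in glucose against 1454 CPM in NaCl and 147 against 908 CPM (-2.77 and -2.62). *SPL2*, which restrains low-affinity phosphate uptake, had 3.18 CPM in glucose against 41.1 CPM in NaCl and 1.06 against 19.2 CPM (-3.69 and -4.16).

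The polyphosphate synthesis genes followed. *VTC3* had 153 CPM in glucose against 804 CPM in NaCl (polyA) and 109 against 407 CPM (ribodepleted), and *VTC1* and *VTC4* fell by 1.04 to 1.43 log2 units. *PHO5*, the main secreted acid phosphatase, fell by 1.35 and 1.30, and *PHM6* by 2.03 and 1.70. For *PHO84*, *PHO12* and *SPL2* the glucose culture was the lowest of the 5 in both library types, and for *PHO84*, *PHO12* and *VTC3* the NaCl culture was the highest. The kinase inhibitor gene *PHO81* was lower by 1.36 in polyA libraries but by 0.93 in ribodepleted ones and was not called. *PHM8*, which also answers to stress, was the 1 listed gene that rose (1.56 and 1.85). The low-affinity transporter gene *PHO87* did not move beyond 2-fold (-0.13 and 0.52).

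Pho4 binds the motif CACGTG. In the 600 bases before the start codon this motif was found in 9 of the 9 phosphate genes that were lower, in 10 of the 19 other genes of the list and in 6.97% of all promoters. In the shorter window of 250 bases before to 50 after the start codon it was found in 3 of the 9, in 4 of the 19 others and in 2.90% of all promoters. The longer window was chosen after the values were seen. One site per gene is printed for those with the largest fall, on the strand of the gene with the motif in capitals. *PHO89*, which is on the list of sodium and potassium transport and not among the 9, is printed as well. The sites of *PHO11* and *PHO12* have the same 30 bases.
PHO12, chrVIII:551804-551833: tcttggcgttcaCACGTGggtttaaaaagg
PHO11, chrI:225165-225194: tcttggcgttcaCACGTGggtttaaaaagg
SPL2, chrVIII:375230-375259: aaatgatgtacgCACGTGggcgaaagttca
PHO84, chrXIII:26197-26226: tgttatttccagCACGTGgggcggaaatta
PHO89, chrII:798828-798857: atgacaatgcagCACGTGggagacaaatag
VTC3, chrXVI:517312-517341: tgcagtcgcaagCACGTGcatgcgattttg

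RP genes were lower in glucose as a group. Of 137 RP genes, 106 were called lower and 0 higher, against 4.63% and 4.12% among all genes. The 106 made up 34.6% of all 306 genes that were lower. All 137 lay below 0 in polyA libraries and 136 in ribodepleted ones. The median change was -1.22 (-1.26 to -1.17) in polyA and -1.57 (-1.65 to -1.50) in ribodepleted libraries. RP genes took 10.4% of all CDS reads in glucose and 19.8% in NaCl in the polyA libraries, and 2.32% against 9.04% in the ribodepleted ones. The median RP gene had 678 CPM in glucose against 1538 CPM in NaCl (polyA) and 156 against 466 CPM (ribodepleted). In LiCl, myriocin and fenpropimorph it had 230.1, 1277 and 779 CPM in polyA libraries, so that NaCl was the highest of the 5 cultures and glucose lay between LiCl and fenpropimorph. Of the 106 genes that were lower, 104 had NaCl alone beyond the other 3 cultures, above them in both library types. In the other 2 genes NaCl was above and glucose below those 3 cultures in both types.

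*RPL18B*, a gene of the large subunit, had the largest fall, with 42.8 CPM in glucose against 451 CPM in NaCl (-3.40) in polyA libraries and 15.04 against 161 CPM (-3.41) in ribodepleted ones. *RPS22B*, a gene of the small subunit with an intron in its 5′ UTR and another in its coding sequence, had 43.7 CPM in glucose against 377 CPM in NaCl (-3.11) and 24.4 against 207 CPM (-3.08). The paralog *RPS22A*, which has no intron in these tables, had 696 against 1633 CPM (-1.23) and 195 against 611 CPM (-1.65). Thus *RPS22B* fell further than *RPS22A*, with intervals that do not overlap. *RPS9A* and *RPS9B* changed by similar amounts, -2.02 and -2.13 in polyA and -2.26 and -2.09 in ribodepleted libraries. At the other end *RPL15B* had 76.5 CPM in glucose against 78.7 CPM in NaCl (polyA), and *RPL41B* changed by -0.15 and 0.16.

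Others of the 15 genes with the largest decrease were *HPT1*, which salvages purine bases, *ATO3*, a putative ammonium transporter of the plasma membrane, *RPL22B* and 4 small or overlapping reading frames. *ATO3* had 29.99 CPM in glucose against 149 CPM in NaCl (polyA) and 7.30 against 40.6 CPM (ribodepleted), and *HPT1* had log2 changes of -2.49 and -3.12. The short reading frames *YLR366W*, *YLR264C-A*, *YGR164W* and *PLS1* changed by -2.89 to -2.29 in polyA and -3.60 to -2.55 in ribodepleted libraries. *YLR366W*, with 19 reads in glucose against 164 in NaCl (polyA), ends just before the 5′ UTR intron of *RPS22B* on the same strand, so its reads may not be separable from those of *RPS22B*.

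Genes for assembling ribosomes moved less than those for their proteins. Of 88 listed ribosome biogenesis genes, *UTP9* and *TSR1* were called lower and 0 were higher, against 4.63% and 4.12% among all genes. Still, 72 of 88 lay below 0 in polyA and 84 of 88 in ribodepleted libraries. The medians were -0.40 (-0.50 to -0.26) and -0.50 (-0.63 to -0.45). Spliceosome proteins had medians of 0.03 and -0.08, with 0 of 62 called, against 8.75% of all genes.

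**Figure D2:**
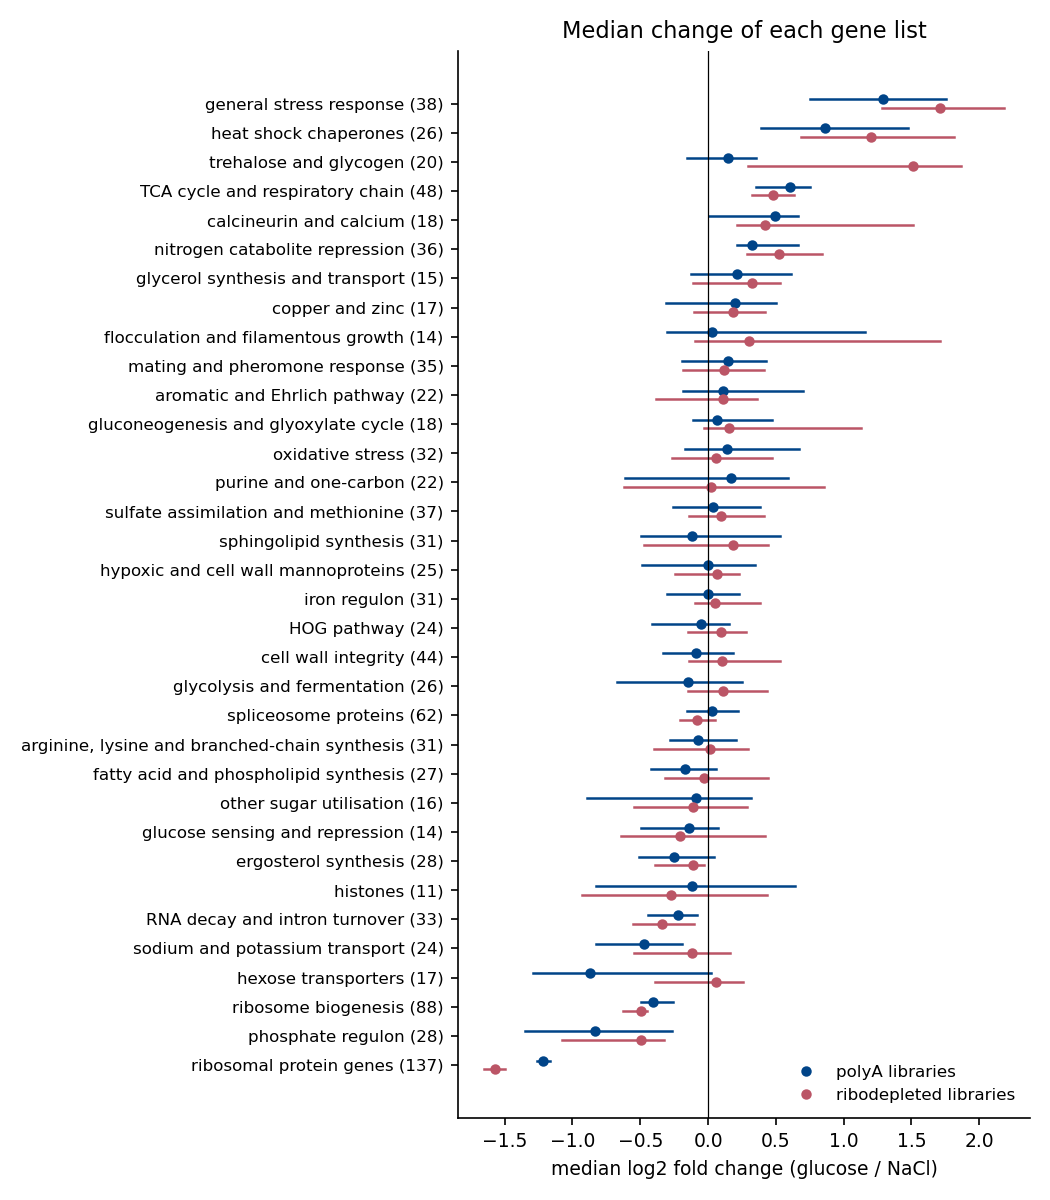
Median log2 fold change of each gene list, glucose over NaCl, in polyA and ribodepleted libraries, with the number of genes tested in both types in brackets and bars for the 95% order-statistic interval of the median over genes. The general stress and chaperone lists lie at the top, the phosphate and RP lists at the bottom, and mitochondrially encoded genes, of which 2 were tested in both types, are not drawn.

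Some genes for the use of nitrogen sources were higher in glucose. Among 36 genes under nitrogen catabolite repression, by which good nitrogen sources keep uptake systems for poorer ones silent, 6 were higher and 1 lower, against 4.12% and 4.63% among all genes. The general amino acid permease gene *GAP1* had 53.2 CPM in glucose against 12.0 CPM in NaCl (polyA) and 25.9 against 5.05 CPM (ribodepleted). The permease gene *AGP1* rose by 2.10 and 2.56, and the vacuolar protease gene *PRB1* by 2.48 and 2.95. *PUT4*, the proline permease, fell by 1.60 and 1.03, with 47 reads in glucose and 164 in NaCl (polyA). The lysine gene *LYS1* had 186 CPM in glucose against 44.1 CPM in NaCl and 82.2 against 18.4 CPM, and in it the glucose culture was the highest of the 5. *URA2*, the first enzyme of pyrimidine synthesis, was chosen for its intron and is described here because its transcript rose as well. It had 2040 CPM in glucose against 606 CPM in NaCl (polyA) and 7258 against 1574 CPM (ribodepleted), with 563 to 648 and 1278 to 1741 CPM in the other cultures.

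The other lists had few called members, with shares to be read against 4.12% higher and 4.63% lower among all genes. Of 31 genes of arginine, lysine and branched-chain amino acid synthesis, *LYS1*, *ARG4* and *BAT2* were higher and *ILV5* lower, and of 22 aromatic amino acid genes *ARO4* was lower (-2.05 and -1.68). Lipid genes showed *ERG2* and *ERG3* of ergosterol synthesis lower, *ACC1* of fatty acid synthesis lower, and the ceramidase gene *YDC1* and the phospholipid methylation gene *OPI3* higher. Of 32 oxidative stress genes, *GRX1*, a glutaredoxin, and *PRX1*, a mitochondrial peroxiredoxin, were higher, a share near that among all genes. Of 25 genes on the list of hypoxic genes and cell wall mannoproteins, *COX5B* and *CYC7*, which encode forms of respiratory chain proteins used at low oxygen, were higher, while *TIR1*, a cell wall mannoprotein, and *HYP2*, the form of the translation factor eIF5A made in the presence of oxygen, were lower. *SAM2* was the 1 gene called among 37 of sulfate and methionine metabolism, and it was lower. No gene was called among 35 of the mating response, 17 of copper and zinc, 14 of glucose sensing, 33 of RNA decay and 11 histone genes.

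Most of the called differences lay on the NaCl side of the wild-type range. Of the 272 genes higher in glucose, 212 had NaCl below the LiCl, myriocin and fenpropimorph cultures in both library types while glucose was not above them in both. In 21 genes only glucose was beyond the range, in 25 both were and in 14 neither was. Of the 306 genes lower in glucose, NaCl alone was above the range in 175 and glucose alone below it in 71, with 42 for both and 18 for neither. The choice of genes by their difference favours levels beyond the range. Among all 6602 genes, NaCl was below the other 3 cultures in 1798 and above them in 1974, and glucose was above them in 1318 and below them in 1399. *BTN2* and *CUR1* belonged to the 25 genes with glucose above and NaCl below the other cultures.

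**Figure D3:**
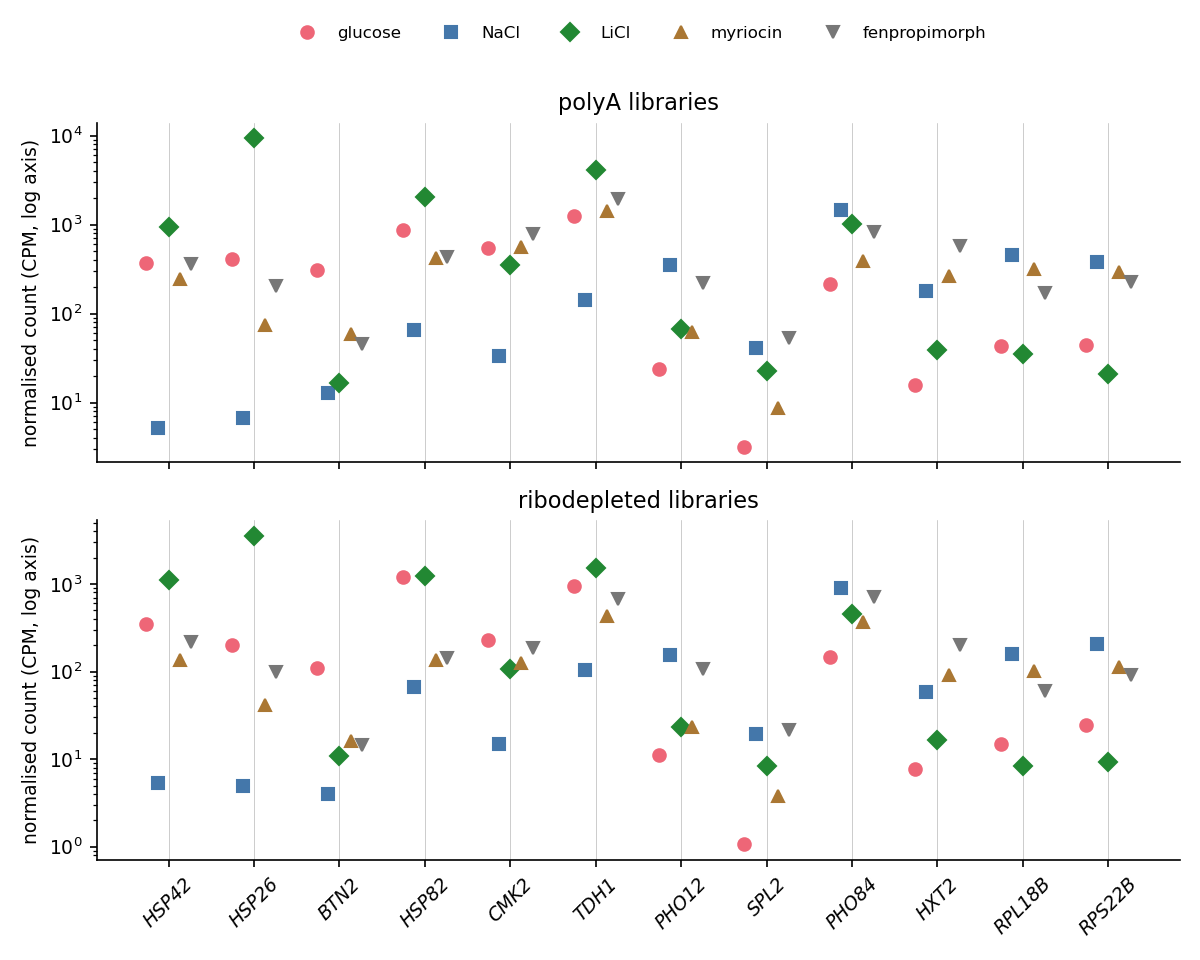
Normalised counts (CPM, log axis) of 12 genes in the 5 wild-type cultures, 1 library per point, with polyA libraries above and ribodepleted libraries below. In *HSP42*, *HSP26*, *HSP82*, *CMK2* and *TDH1* the NaCl point lies alone at the bottom, in *PHO12*, *SPL2*, *PHO84* and *HXT2* the glucose point lies at the bottom, and in *RPL18B* and *RPS22B* the NaCl point lies at the top.

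The library types disagreed in a way that depended on gene length. The 6248 genes that averaged 50 reads or more were split by CDS length into 5 bins of equal size. The median over genes of the polyA change minus the ribodepleted change was 0.28 in the shortest bin (up to 507 bases) and -0.30 in the longest (from 2064 bases). The ratio of polyA to ribodepleted level in the longest bin relative to the shortest was lowest in the glucose culture, at -1.34 on the log2 scale, and highest in the NaCl culture, at -0.71. The LiCl, myriocin and fenpropimorph cultures lay between, from -1.04 to -0.90. The part of this length dependence in single results was not tested.

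Several stress transcripts, not all of them in the longest bin, differed mainly in the ribodepleted libraries. *HSP104*, the disaggregase with a CDS of 2727 bases, had 229.7 CPM in glucose against 92.4 CPM in NaCl in polyA libraries (1.31) but 1013 against 52.0 CPM in ribodepleted ones (4.28). *PGM2*, phosphoglucomutase with a CDS of 1710 bases, had 22.7 against 19.9 CPM (0.19) and 108 against 11.4 CPM (3.25). In its length bin (1377 to 2061 bases) the median polyA change minus ribodepleted change was -0.04. *TSL1*, a subunit of trehalose synthase with a CDS of 3297 bases, changed by 0.44 and 3.28. The list of 20 trehalose and glycogen genes had a median of 0.15 (-0.15 to 0.36) in polyA and 1.51 (0.29 to 1.87) in ribodepleted libraries. Of these 20 genes, 2 were at least 2-fold higher in polyA and 13 in ribodepleted libraries, against 7.18% and 7.35% of all genes. *NTH1*, a trehalase, and *GPH1*, glycogen phosphorylase, were called in both. Requiring both library types therefore leaves out part of this pathway.

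**Figure D4:**
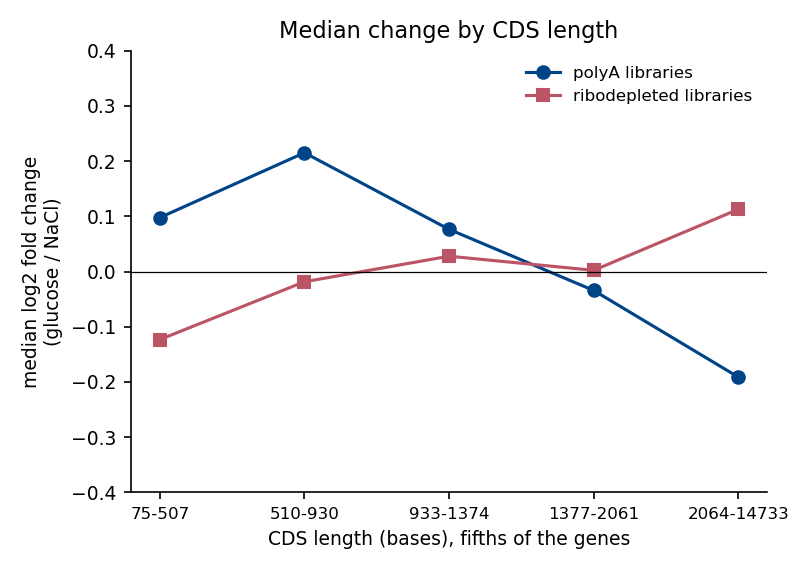
Median log2 fold change, glucose over NaCl, in 5 bins of genes by CDS length in bases, for polyA and ribodepleted libraries. The polyA line falls to -0.19 in the longest bin and the ribodepleted line rises to 0.11.

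Intron retention was lower in glucose than in NaCl, more so in polyA than in ribodepleted libraries. Glucose and NaCl were also the extremes of the length dependence of polyA against ribodepleted levels given above (-1.34 and -0.71). The part of that dependence in intron retention was not tested. Retention was taken as read density in the intron over read density in the CDS of the same gene, in percent, and the change as the log2 ratio of retention in glucose over NaCl. The median change was -0.98 (-1.07 to -0.77) over 296 introns in polyA libraries and -0.44 (-0.53 to -0.30) over 286 introns in ribodepleted ones. Retention was at least 2-fold lower in 147 introns (49.7%) and at least 2-fold higher in 11 (3.72%) in polyA libraries, and in 54 (18.9%) and 11 (3.85%) in ribodepleted ones. In both library types it was at least 2-fold lower in 37 of 286 introns (12.9%) and at least 2-fold higher in 5 (1.75%). The sign was the same in both library types in 221 of the 286 introns.

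RP introns and other introns moved in the same direction. RP introns had a median retention of 0.58% in glucose against 1.19% in NaCl in polyA libraries, and of 1.78% against 2.34% in ribodepleted ones. Their median change was -1.11 (-1.25 to -1.03) and -0.47 (-0.55 to -0.34). Other introns had a median retention of 8.00% against 14.4% and of 18.4% against 24.98%, with a median change of -0.73 (-1.02 to -0.49) and -0.39 (-0.58 to -0.23). In the LiCl culture the median RP intron was retained at 7.45% (polyA) and 18.9% (ribodepleted), and in fenpropimorph at 0.68% and 1.39%, so glucose was the lowest of the 5 cultures in polyA libraries and fenpropimorph in ribodepleted ones. Reads on RP introns, scaled by TMM effective library size, fell by a median of 2.29 log2 units in polyA and 1.99 in ribodepleted libraries. For other introns read in ribodepleted libraries the change depended on the read minimum, and where introns had to average 50 reads the median was -0.15 (-0.30 to 0.03).

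**Figure D5:**
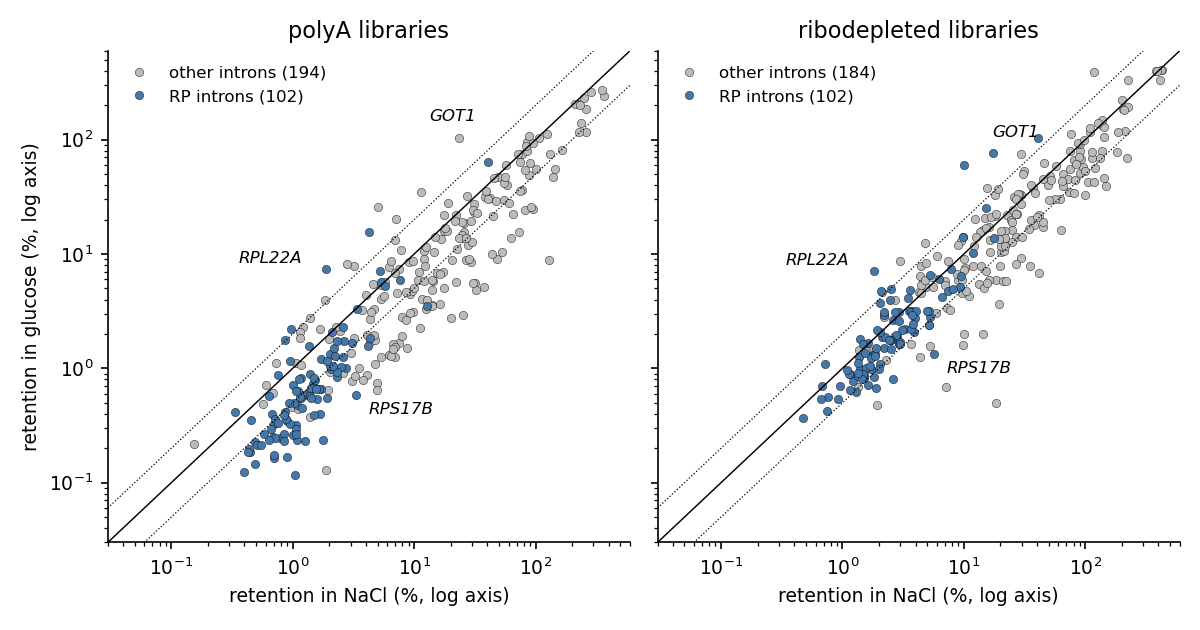
Intron retention in glucose (y axis) against NaCl (x axis), in percent on log axes, in polyA (left) and ribodepleted (right) libraries, 1 point per intron, with a solid line at equal retention and dotted lines at a 2-fold difference. Most points lie below the solid line, *RPS17B* is among the lowest relative to it, and *RPL22A* and *GOT1* lie above.

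The highest and lowest introns were not of 1 kind. *RPL22A*, an RP gene of the large subunit, was retained at 7.37% in glucose against 1.90% in NaCl (polyA, 1.959, interval 1.81 to 2.11) and at 7.09% against 1.80% (ribodepleted, 1.98, 1.70 to 2.25). Its CDS level fell at the same time, to 231 CPM in glucose against 1297 CPM in NaCl in polyA libraries. The paralog *RPL22B*, whose intron is bound by its own protein, was also retained more, at 63.3% against 40.7% and 104% against 41.1%. *GOT1* was retained at 103% in glucose against 23.3% in NaCl (polyA) and 75.02% against 29.6% (ribodepleted). *LSM2*, a component of the U6 snRNP, was retained at 34.7% against 11.5% and 38.0% against 15.6%. *YPR170W-B* and *PSP2* completed the 5 highest, with *PSP2* resting on 50 intron reads in glucose and 25 in NaCl (polyA) and 23 and 15 (ribodepleted).

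At the low end, *RPS17B*, a gene of the small subunit, was retained at 0.58% in glucose against 3.34% in NaCl in polyA libraries (90 against 1020 intron reads) and at 1.34% against 5.69% in ribodepleted ones. The 5′ UTR intron of *URA2* was retained at 1.48% against 6.64% and at 6.85% against 41.6%. The intron reads of *URA2* were close in number, 967 in glucose and 1278 in NaCl in ribodepleted libraries, while its CDS reads were 293298 and 63857, so the fall in its retention went with the rise of its transcript. *MRK1*, *NSP1* and *DTD1* completed the 5 lowest on few reads. *DTD1* had 0 intron reads in glucose against 17 in NaCl in ribodepleted libraries, and 2 against 12 in polyA ones.

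The first and last bases of these introns were read from the R64 genome to show the splice sites. The first 6 and last 3 bases are in capitals.
RPL22A, start, chrXII:263206-263594: GTATGAtactttaa
RPL22A, end: taatttttttgataTAG
RPS17B, start, chrIV:1355237-1355550: GTACGTaccacgag
RPS17B, end: tattgctatttttaTAG
GOT1, start, chrXIII:854817-854898: GTATGTttttaata
GOT1, end: aacttacttttcacTAG
Most yeast introns start with GTATGT. The introns were split by this start after the values were seen. In RP genes the median change was -1.11 over 76 introns that start with GTATGT and -1.20 over 24 that do not in polyA libraries, and -0.46 and -0.61 in ribodepleted ones. In other genes it was -0.80 over 131 and -0.49 over 55 introns in polyA libraries, and -0.45 over 125 and -0.23 over 52 in ribodepleted ones.

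The introns of *RPS22B* and *RPS9A* gave values unlike the RP median. In *RPS22B*, retention of the 5′ UTR intron was 3.33% in glucose against 3.40% in NaCl in polyA libraries (-0.03, -0.39 to 0.33) and 14.1% against 9.88% in ribodepleted ones (0.51, 0.28 to 0.75). Its CDS intron was retained at 5.93% against 7.72% (-0.38) in polyA libraries and at 76.9% against 17.2% (2.16) in ribodepleted ones. A noncoding RNA is annotated inside that CDS intron, and its reads cannot be told apart from those of unspliced transcript. The *RPS9A* intron was retained more in glucose, at 15.5% against 4.24% (1.87) and at 25.5% against 15.3% (0.74), while the *RPS9B* intron was retained less, at 1.56% against 4.19% (-1.42) and at 2.42% against 3.85% (-0.67). The CDS levels of *RPS9A* and *RPS9B* fell alike, as given above. *RPL18B* had a high value in ribodepleted libraries alone, 60.5% in glucose against 9.96% in NaCl, against 5.74% and 5.38% in polyA libraries.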

How the data were processed

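RNA of 8 yeast samples was sequenced by the authors as polyA and ribodepleted libraries (paired 100-bp reads). Per the labels and the study's methods, reads were trimmed with cutadapt, aligned to R64 with HISAT2 and counted with featureCounts, and the deposited values are raw read counts per CDS, intron and 5′ UTR intron. The deposited tables also hold feature lengths in bases. Settings for strand, read pairs and repeated sequence are not given in the sources used here.

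The 4 glucose and NaCl libraries were compared within each library type. CPM used TMM effective library sizes from edgeR 4.0.16 (R 4.3.3) over the 8 libraries of a type, a pseudocount of 0.5 and a mean of at least 10 reads. With 1 library per group no test was run, and intervals are 95% counting intervals from the log ratio of Poisson counts or, for medians, order statistics. Introns needed a mean of 10 intron and 10 CDS reads. Introns of genes with no CDS count (63) and mitochondrial ones (11) were left out of 371. Named genes are the top 15 in each direction, ranked on the smaller of the polyA and ribodepleted changes among genes averaging 50 reads, called members of 35 gene lists (RP genes included) and members that describe a list, the 5 highest and 5 lowest introns by the same measure, *RPS22A*, *RPS22B*, *RPS9A*, *RPS9B* and strain markers. The members and lists were chosen with earlier results of these data known. The *RPL18B* and *RPL22B* introns were named after their values were seen. An item that the naming rule includes is not reported here.

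Symbols were found for 6014 of 6697 CDS in the RefSeq gene table, and 6003 of 6008 CDS found in the R64 annotation had the same coordinates. Sequences, promoters included, were read from the RefSeq R64 genome relative to start codons, since a table of promoters by transcript start was not used here. Of the called genes, 2 of 272 higher and 15 of 306 lower shared most of their 100-base windows with another place in the genome. Alternatives were size factors of DESeq2 1.42.0, scaling by total counts, TMM with the RP genes left out or on the glucose and NaCl libraries alone, other filters, a pseudocount of 1, a 1.5-fold threshold and halved counts, with, for introns, another denominator and subsets. In simulated counts for glucose against NaCl, 200 of 200 genes changed 4-fold were called among 6640 (polyA) and 200 of 200 among 6613 (ribodepleted), with 6 and 7 unchanged genes called. These were Poisson counts with no variation between cultures, called at 2-fold within each library type alone. They give no rate of false calls for real cultures. Further steps used scipy 1.17.1, matplotlib 3.10.9, pandas 2.3.3 and numpy 2.4.6 under Python 3.11.15.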

Additional observations from a re-analysis of the deposited data

How the results depend on the processing

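No paired analysis was possible because each group has 1 library and the labels carry no replicate numbers, so leaving out a replicate was not possible either. With CPM on total counts the median of all genes moved to 0.37 in polyA and -0.32 in ribodepleted libraries, the calls became 1046 higher and 235 lower (polyA, 81.7% higher against 47.7% with TMM) and 258 higher and 912 lower (ribodepleted, 22.1% against 51.1%), and the counts in both types became 211 higher and 186 lower (53.1% against 47.1%). The RP median was then -0.85 and -1.89, and the median of the RNA decay list turned to 0.15 in polyA libraries. DESeq2 size factors, TMM without RP genes, TMM on the glucose and NaCl libraries, the filters, the pseudocount and halved counts left every count of genes within 1.5 times. At a 1.5-fold threshold 681 genes were higher and 716 lower in both types (1191 and 1190 in polyA, 1092 and 1099 in ribodepleted libraries). Of 594 values of single genes under these alternatives, 0 reversed and 56 moved, all 56 with CPM on total counts. Of 629 list medians, 41 moved and 1 reversed, 38 of the 41 with CPM on total counts, where the medians in polyA and ribodepleted libraries were 0.97 and 0.16 for the TCA cycle and respiration, 0.86 and 0.10 for calcineurin, 0.69 and 0.20 for nitrogen catabolite repression, -0.04 and -0.82 for ribosome biogenesis and 0.39 and -0.40 for spliceosome proteins.

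For introns, reads relative to the TMM effective library size, not to total counts, gave medians of -1.17 (all) and -2.29 (RP) in polyA libraries. In ribodepleted libraries the medians were -1.05 and -1.99, with 147 lower and 6 higher. The 5′ UTR introns alone gave -0.76 (all, -1.31 to -0.17), -0.80 (RP, -1.32 to -0.19) and -0.21 (other, -2.24 to 0.84) in polyA libraries. In ribodepleted libraries they gave -0.32 (all, -0.70 to 0.09) and -0.31 (RP, -0.70 to 0.19), with intervals that include 0. Of these introns 9 were lower and 1 higher in polyA, and 3 and 0 in ribodepleted libraries. A mean of at least 50 intron reads gave 24 lower introns and -0.15 for other introns in ribodepleted libraries. The causes were not tested. *HXT14*, *LSO1* and the introns of *MRK1*, *NSP1* and *DTD1* rest on few reads, and counting error is large there.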

Other observations

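Of 22 genes on the purine and one-carbon list, 3 were higher in glucose and 2 lower, against 4.12% and 4.63% among all genes, with medians of 0.17 and 0.02. *HPT1*, which is not on that list and salvages hypoxanthine and guanine, had 68.6 CPM in glucose against 386 CPM in NaCl (polyA) and 23.4 against 203 CPM (ribodepleted), and *IMD2* and *IMD3*, which encode IMP dehydrogenase for GTP synthesis, fell by 2.22 and 1.28 in polyA and by 2.01 and 1.05 in ribodepleted libraries. *ADE2* and *ADE17*, steps of the synthesis of IMP, were higher in glucose by 1.23 and 1.24 in polyA and by 1.07 and 1.58 in ribodepleted libraries.

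Of 14 genes on the list of flocculation and filamentous growth, 3 were higher in glucose and 0 lower, against 4.12% and 4.63% among all genes, with medians of 0.03 and 0.30. *NRG1*, a repressor of glucose-repressed and filamentation genes, had 68.2 CPM in glucose against 9.90 CPM in NaCl (polyA) and 44.3 against 7.10 CPM (ribodepleted), and the activators *MGA1* and *PHD1* rose by 1.69 and 1.16 in polyA and by 3.30 and 1.71 in ribodepleted libraries. In the iron regulon, 2 of 31 genes were higher and 2 lower, with medians of -0.00 and 0.05. *FIT3*, a cell wall mannoprotein that helps retain iron, had 236 CPM in glucose against 33.6 CPM in NaCl (polyA). *FTR1*, the iron permease, had 93.3 against 305 CPM. *LSO1* was also higher (2.89 and 2.97) and *FRE4* also lower (-1.50 and -1.13). Among 44 genes of cell wall integrity, *WSC4* was called higher and *PIR1* lower (-1.91 and -1.52). *WSC4*, a sensor-like protein of the cell surface, had 181 CPM in glucose against 43.2 CPM in NaCl (polyA). Its level in glucose was above the 30.1 to 48.2 CPM of the other 3 cultures (polyA).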
